A study of Mus musculus with 11 samples.

Results

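A group of 9 heterogeneous nuclear ribonucleoprotein (hnRNP) genes and the RNA helicase gene Dhx9 were followed in thymocytes of mice lacking the RNA-binding protein ZMAT3. These 10 genes were chosen by name and found in the count table by the Ensembl identifier of their GENCODE symbol, 10 of 54418 genes in all. The RNA of thymus cells was sequenced for 11 mice aged 8 to 12 weeks, 4 of them wt, 4 Zmat3-/- and 3 triple mutants of the genotype Puma-/-p21-/-Zmat3-/- (TKO), with 1 library for each mouse. All mice were on a C57BL/6-WEHI background and the mutants carried their deletions in every cell, the TKO mice having been bred from Zmat3-/- and Puma-/-p21-/- animals. The Zmat3 deletion is thus shared by both mutant groups, and the TKO mice additionally lack Bbc3, which encodes PUMA, and Cdkn1a, which encodes p21. No mice lacking PUMA and p21 alone were analysed here.

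hnRNPs are abundant nuclear proteins that coat pre-mRNA as it is made and help to decide which exons are kept, how the message is exported and how long it lasts. In T cells they take part in the regulated splicing of receptors such as CD45. Dhx9 encodes an ATP-driven helicase that unwinds RNA duplexes, including those formed by inverted repeats in introns. ZMAT3 is itself a zinc-finger splicing regulator induced by TRP53, and Hnrnpdl and Dhx9 are among the genes whose transcripts it has been linked to in other cells. The counts compared here are sums over each gene, so they give the amount of RNA and cannot show which exons it contains.

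The 10 genes lie on 9 chromosomes of GRCm38. Dhx9 (ENSMUSG00000042699.11, chr1:153455758-153487660, minus strand) and Hnrnpu (ENSMUSG00000039630.10, chr1:178321108-178337797, minus strand) share chromosome 1. Hnrnpa3 (ENSMUSG00000059005.13) is at chr2:75659261-75669407 and Hnrnpl (ENSMUSG00000015165.16) at chr7:28808541-28822266, both on the plus strand, as is Hnrnpa1 (ENSMUSG00000046434.16) at chr15:103240432-103246692. On the minus strand are Hnrnpdl (ENSMUSG00000029328.15) at chr5:100033577-100039664, Hnrnpa2b1 (ENSMUSG00000004980.16) at chr6:51460932-51469894, Hnrnpk (ENSMUSG00000021546.18) at chr13:58391142-58403343, Hnrnpc (ENSMUSG00000060373.15) at chr14:52073377-52104028 and Hnrnpm (ENSMUSG00000059208.15) at chr17:33646233-33686860. Hnrnpm lies 4.56 Mb from the start of Cdkn1a, a gene deleted in the TKO mice. Between 1 (Hnrnpu) and 18 (Hnrnpk) coding transcripts were annotated per gene, and the counts of all of them were summed.

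The stretch of DNA just before the transcription start of the 2 genes whose Zmat3-/- and wt mice did not overlap is shown here, on the coding strand and taken from RefSeq (GRCm38.p6), with all 10 genes matched by symbol. The Dhx9 sequence is chr1:153487661-153487780 (minus strand), with the ETS-type motif CCGGAAG in capitals. The Hnrnpl sequence is chr7:28810770-28810889 (plus strand), with TGACG, the core of a cyclic AMP response element, in capitals. The Hnrnpl start that RefSeq uses lies inside the gene as GENCODE places it (28808541 to 28822266), downstream of the GENCODE start.
Dhx9: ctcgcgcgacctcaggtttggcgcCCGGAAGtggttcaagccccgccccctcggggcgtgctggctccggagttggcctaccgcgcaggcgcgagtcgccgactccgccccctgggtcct
Hnrnpl: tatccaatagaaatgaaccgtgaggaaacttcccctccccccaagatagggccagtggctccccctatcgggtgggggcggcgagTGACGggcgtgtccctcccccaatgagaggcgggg
Both are GC-rich stretches of the kind found before widely expressed genes. Within the 250 bases before the start, searched on both strands, CCGGAAG was present in 1 of the 10 genes (Dhx9) and in 7.05% of 27025 RefSeq promoters. TGACG was present in 6 of the 10, Hnrnpl, Hnrnpm, Hnrnpa2b1, Hnrnpa3, Hnrnpc and Hnrnpk, and in 17.9% of all promoters. CCAAT was found in 6 of the 10 and 34.5% of all, GGGCGG in 6 of the 10 and 32.9% of all, and CACGTG in 1 of the 10 (Hnrnpa3) and 6.05% of all. These matches describe the letters of the sequence, and no binding was measured.

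The libraries held 17669715 to 80207003 counts, TKO mouse 3 being the deepest, and the 10 genes together took 0.647% to 0.845% of them. Each of the 10 had at least 6190 counts in every mouse. The wt mice fell into pairs. Across genes the correlation of log2 CPM (CPM being the count relative to the TMM-scaled library size) was 0.983 between wt mice 1 and 2 and 0.984 between wt mice 3 and 4, but 0.889 to 0.922 between the pairs, while it was 0.986 to 0.992 among Zmat3-/- and 0.972 to 0.985 among TKO mice. For the counts of members called and for the members with the largest differences, values against wt are therefore also given with either pair left out. The labels give no sex, and Xist reached 505 CPM or more in 5 libraries (the first 2 of wt, the first 2 of Zmat3-/- and the first of TKO) while staying at or under 2.54 CPM in the remaining 6. The targeted gene Zmat3 had 9.88 and 12.2 CPM in wt mice 1 and 2, 26.8 CPM in each of wt mice 3 and 4, 5.34 to 6.85 in Zmat3-/- mice and 7.78 to 8.25 in TKO, so that every mutant lay below every wt mouse (log2FC −1.64 in Zmat3-/- over wt, adjusted p = 0.0786 from edgeR). In the TKO mice Bbc3 (12.9 to 15.2 CPM, against 16.8 to 20.1 in wt) and Cdkn1a (2.49 to 3.52 CPM, against 3.53 to 10.4 in wt) were likewise below every wt mouse, for Cdkn1a by a margin of 3.52 against 3.53 CPM. None of these 3 differences between TKO and wt mice passed the test (adjusted p = 0.371 for Zmat3, 0.399 for Bbc3 and 0.443 for Cdkn1a in edgeR).

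The cells were thymocytes by their markers. All 14 thymocyte genes of the marker list were counted, and their summed level ran from 14670.5 to 17951 CPM (wt), 15015 to 17341 CPM (Zmat3-/-) and 15943 to 20998 CPM (TKO). Summed over the 8 B cell markers, wt mice had 62.8 to 131 CPM, Zmat3-/- mice 66.1 to 86.3 CPM and TKO mice 59.7 to 85.3 CPM. For the 12 myeloid markers the ranges were 148 to 262, 193 to 263 and 131 to 285 CPM, for the 15 stromal and epithelial markers 181 to 299.5, 238 to 256 and 209 to 244 CPM, and for the 7 erythroid markers 880.1 to 8561, 1153 to 5706 and 2677 to 3721 CPM, in the same order of genotypes. No marker of these lists was at 0 in any genotype. Within the wt mice the pairs differed here too, with B cell markers at 104 and 131 CPM in mice 1 and 2 and at 62.8 and 78.1 CPM in mice 3 and 4. The share of mitochondrial counts was 4.25% to 6.31% for wt, 6.54% to 14.6% for Zmat3-/- and 3.86% to 9.29% for TKO mice. The part of these differences in the results below was not tested. In bulk RNA, fewer cells of a type and less RNA per cell cannot be told apart.

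Per kilobase of the longest coding transcript, Hnrnpa2b1 had the highest mean of the 10 in every genotype and Dhx9 the lowest, although Dhx9 overlapped with Hnrnpm in both mutant groups. In wt mice Hnrnpa2b1, whose protein binds UAG-containing RNA, stood at 1100 ± 147 CPM per kb (SD, n = 4). Hnrnpa1, which encodes its close relative and a widely studied repressor of exon inclusion, followed at 452 ± 60.7, and Hnrnpk, whose KH domains bind C-rich RNA, at 318 ± 35.6 CPM per kb. The ranges of these 3 genes over the wt mice did not overlap with each other or with the next gene. Hnrnpl, Hnrnpc, Hnrnpa3, Hnrnpu, Hnrnpm and Hnrnpdl came next, with wt means from 209 down to 132 CPM per kb, and no neighbours in this stretch differed beyond their spread. Dhx9 lay below them all at 84.9 ± 13.9 CPM per kb (range 72.9 to 100.2). The order of the first 5 genes by their means was the same in Zmat3-/- and TKO mice. With the union of all annotated exons as the length, 6 of the 10 ranks in wt stayed, including the first 3 and the last. The gap between Hnrnpa2b1 and Hnrnpa1 and that between Hnrnpk and the next gene nearly closed. Hnrnpa2b1 then had a wt mean of 289 beside 275 CPM per kb for Hnrnpa1, and Hnrnpk 146 beside 145 for Hnrnpa3. By these means Hnrnpa2b1 and Hnrnpa1 still lay well above the other genes. Hnrnpk was separate from the next gene only with the length of the longest coding transcript.

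**Figure D1:**
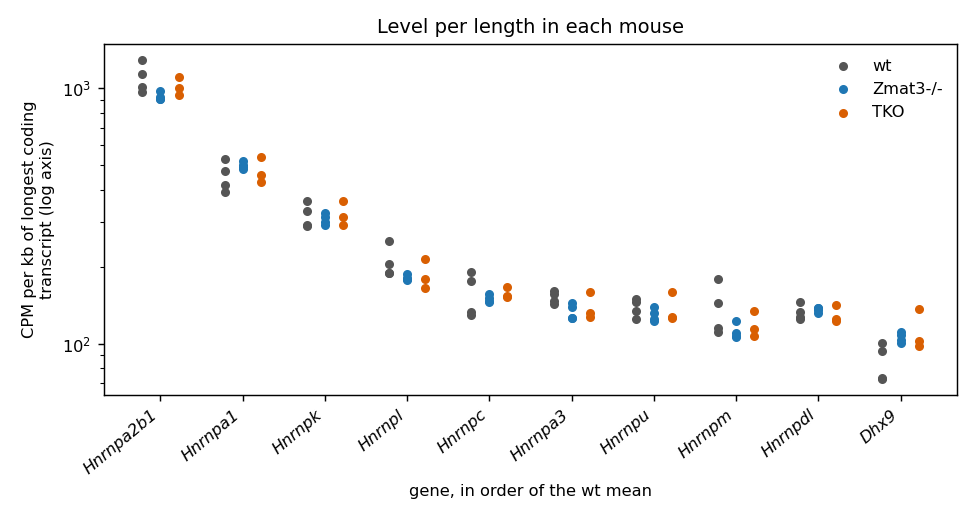
Level of each gene in each mouse as CPM per kb of its longest coding transcript, on a log axis, with genes ordered by the wt mean and points coloured by genotype. Hnrnpa2b1 (965 to 1291 in wt), Hnrnpa1 and Hnrnpk stand clear of the rest with this length. With the union of exons the wt means of Hnrnpa2b1 and Hnrnpa1 stay above the rest, but that of Hnrnpk does not stand apart. In wt 6 genes lie between 111 and 252, neighbours in the order overlapping, and Dhx9 has the lowest mean.

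With all 4 wt mice, Dhx9 had the largest positive log2FC of the 10 genes in both mutant groups, without passing the test in either. It had 336, 338, 462 and 431 CPM in wt mice 1 to 4, 464, 476, 497 and 514 CPM in Zmat3-/- mice 1 to 4, and 471, 451 and 629.9 CPM in TKO mice 1 to 3. No Zmat3-/- mouse was as low as any wt mouse, although wt mouse 3 and Zmat3-/- mouse 1 were nearly level, and TKO mouse 2 fell below wt mouse 3. The mean was 392 ± 64.4 CPM in wt and 488 ± 22.2 CPM in Zmat3-/- mice (SD, n = 4 and 4). The log2FC was 0.32 (standard error 0.144, 95% interval −0.010 to 0.65), at an unadjusted p of 0.056 and an adjusted p of 0.326 in edgeR. In TKO mice the mean was 517 ± 98.0 (SD, n = 3), a log2FC of 0.35 over wt (standard error 0.181, adjusted p = 0.545 from edgeR). The size of the difference depended on the wt mice. Against wt mice 3 and 4 alone the log2FC was 0.11 (adjusted p = 0.231) in Zmat3-/- and 0.14 (adjusted p = 0.4) in TKO mice. Against wt mice 1 and 2 alone it was 0.55 (adjusted p = 0.000447) and 0.59 (adjusted p = 0.00773), all from edgeR. Of all genes, 33.0% and 8.15% were called in the first 2 of these fits and 56.1% and 43.6% in the last 2. Against wt mice 3 and 4 alone Hnrnpa1 (0.28) was above Dhx9 in Zmat3-/- and Hnrnpc (0.20) in TKO mice.

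With all 4 wt mice, Hnrnpm, which encodes a GU-binding splicing regulator, was the member with the lowest log2FC, and Hnrnpa2b1 and Hnrnpl had lower means as well. Hnrnpm had 703, 569, 452 and 438 CPM in wt mice 1 to 4, 432, 481, 422 and 417 in Zmat3-/- mice, and 422, 449 and 529.8 in TKO mice. Wt mice 1 and 2 were above all other mice, and wt mice 3 and 4 were within the range of the mutants. Its log2FC in Zmat3-/- over wt mice was −0.30 (standard error 0.159, adjusted p = 0.402 from edgeR), −0.043 (adjusted p = 0.672) against wt mice 3 and 4 alone and −0.53 (adjusted p = 0.00229) against wt mice 1 and 2 alone. Hnrnpl, whose protein binds CA-rich RNA and represses variable exons of CD45 in T cells, had 676, 549, 506 and 506 CPM in wt, 474, 502, 482 and 478 in Zmat3-/- and 443, 481 and 577 in TKO mice. Every Zmat3-/- mouse was below every wt mouse, whereas TKO mouse 3 was above 3 of the 4 wt mice. The log2FC of Hnrnpl in Zmat3-/- mice was −0.20 (standard error 0.120, adjusted p = 0.44 from edgeR). It was −0.085 (adjusted p = 0.293) against wt mice 3 and 4 alone and −0.33 (adjusted p = 0.0170) against wt mice 1 and 2 alone, both from edgeR. Hnrnpa2b1 had 2232, 1963, 1743 and 1668 CPM in wt, 1599.9, 1692, 1569 and 1566 in Zmat3-/- and 1624, 1737 and 1911 in TKO mice. Its log2FC in Zmat3-/- mice was −0.24 (standard error 0.130, adjusted p = 0.410 from edgeR), Zmat3-/- mouse 2 lying just above wt mouse 4. Against wt mice 3 and 4 alone Hnrnpa2b1 was at −0.11 (adjusted p = 0.284) and against wt mice 1 and 2 alone at −0.37 (adjusted p = 0.0109, both from edgeR). Hnrnpm was not the lowest member against wt mice 3 and 4 alone. In Zmat3-/- mice the fits against wt mice 3 and 4 alone called 33.0% of all genes, and those against wt mice 1 and 2 alone 56.1%.

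The ratio of Dhx9 to Hnrnpm counts within a library needs no scaling between libraries. For every 100 Hnrnpm counts there were 47.8, 59.5, 102 and 98.3 Dhx9 counts in wt mice 1 to 4, 107, 99.1, 118 and 123 in Zmat3-/- and 112, 101 and 119 in TKO mice. Wt mice 1 and 2 were far below all others, and wt mouse 3 was above Zmat3-/- mouse 2 and TKO mouse 2. The pair of genes was singled out after its values were seen.

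**Figure D2:**
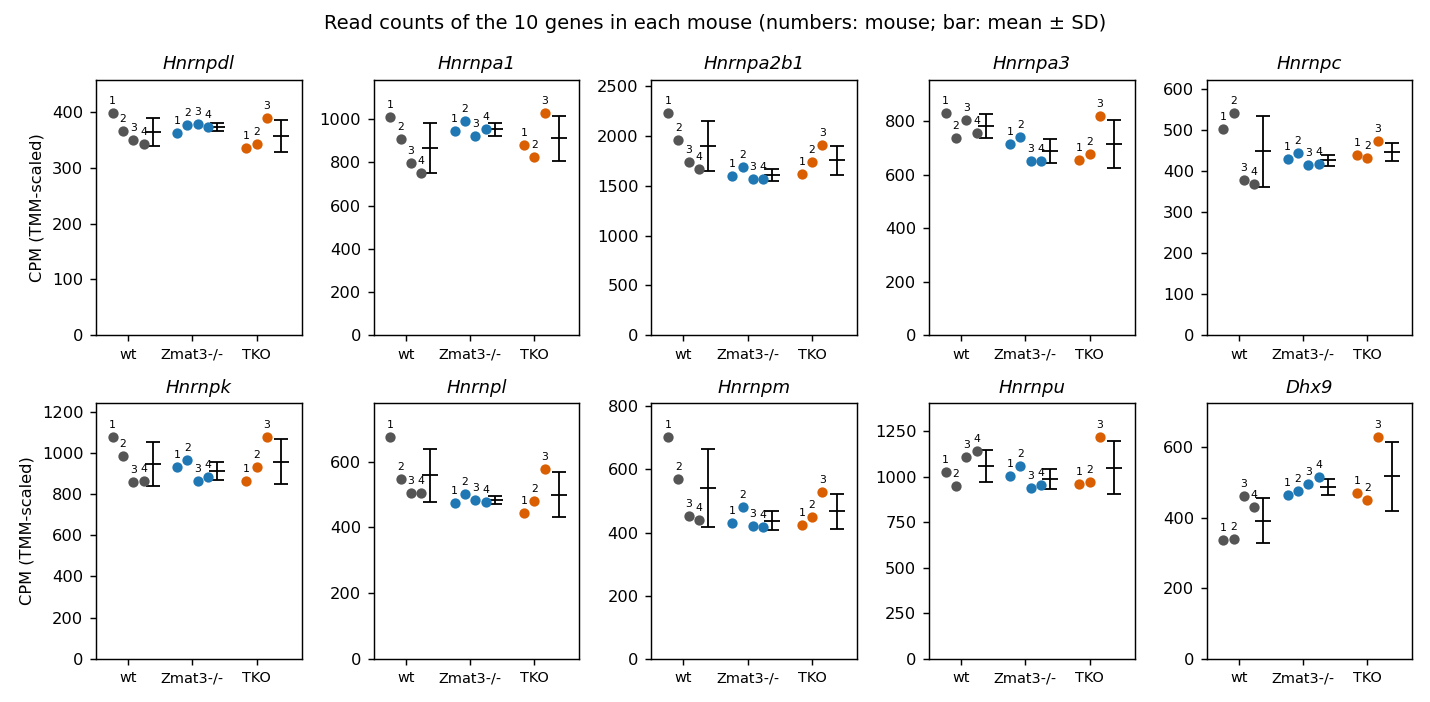
TMM-scaled CPM of the 10 genes in each mouse, by genotype, with points numbered by mouse and black bars giving the mean ± SD (n = 4, 4 and 3). The Dhx9 panel shows wt mice 1 and 2 at 336 and 338 CPM below all others, the Hnrnpm panel shows the same mice at 703 and 569 above all others, and TKO mouse 3 is the highest TKO mouse in every panel.

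Hnrnpdl, which encodes a relative of the AU-rich element binding protein hnRNP D and regulates its own splicing, had 399, 366, 350.1 and 342 CPM in wt mice 1 to 4, 363, 378, 379 and 374 in Zmat3-/- mice and 337, 344 and 390.3 in TKO mice. The 3 genotypes overlapped, with Zmat3-/- mice inside the wt range. Its log2FC was 0.042 (95% interval −0.17 to 0.25) in Zmat3-/- and −0.073 (−0.37 to 0.22) in TKO over wt mice, so that a log2FC of up to 0.25 in the first and down to −0.37 in the second lay inside the intervals. Hnrnpa1 ranged over 749.8 to 1011 CPM in wt, 922 to 992 in Zmat3-/- mice and 827 to 1028 in TKO, and all 3 groups overlapped. Hnrnpc, whose tetramer binds U-tracts of nascent RNA, ranged over 368 to 541, 415 to 443 and 431 to 472 CPM, with wt mice 1 and 2 above and wt mice 3 and 4 below every mutant mouse. Hnrnpk ranged over 859 to 1079, 865 to 964 and 863 to 1077 CPM, nearly the same span in wt and TKO mice. Hnrnpu, also known as scaffold attachment factor A, a nuclear matrix protein, ranged over 950.4 to 1142.5, 936 to 1059 and 959 to 1219 CPM, and was the 1 hnRNP member in which wt mice 3 and 4 were both above wt mice 1 and 2. The intervals of these 4 genes included 0 in every comparison.

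The spread within genotypes was unequal. The median SD of log2 CPM over the 10 genes was 0.190 in wt, 0.059 in Zmat3-/- and 0.166 in TKO mice, against 0.370, 0.122 and 0.218 over all genes tested. Wt mouse 1 departed from the mean over all mice by 0.56 for Hnrnpm, 0.40 for Hnrnpl, 0.35 for Hnrnpa2b1 and −0.43 for Dhx9 on the log2 scale. TKO mouse 3, the deepest library and the one with the lowest share of mitochondrial counts, was above the mean for all 10, from 0.096 for Hnrnpdl to 0.47 for Dhx9. The cause of either departure was not tested.

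**Figure D3:**
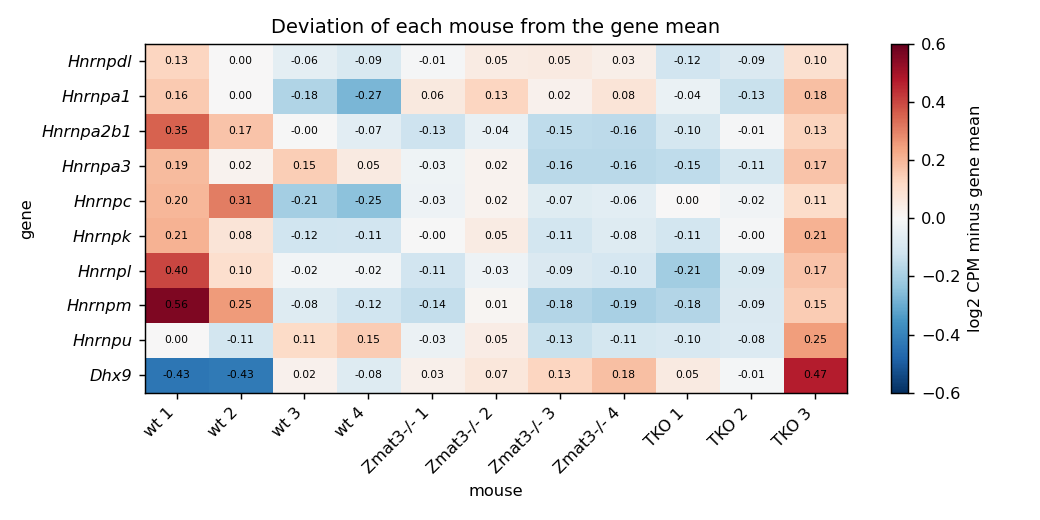
log2 CPM of each gene in each mouse minus the gene's mean over the 11 mice (colour and printed value). Wt mice 1 and 2 are high for Hnrnpm (0.56 and 0.25) and low for Dhx9 (−0.43 for each), Zmat3-/- mice lie between −0.19 and 0.18 throughout, and TKO mouse 3 is positive for every gene.

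Between Zmat3-/- and wt thymocytes, which asks what loss of ZMAT3 does to these transcripts, none of the 10 genes was called. All 10 passed the filter on low counts. At an adjusted p under 0.05 edgeR's quasi-likelihood test called 0 of the 10, where it called 0.763% of the 13494 genes tested. None passed the study's added threshold of an absolute log2FC above 1.5 (0.319% of all genes), none had an unadjusted p under 0.05 (16.1% of all genes), and with DESeq2 the count called was 0 as well (8.04% of all genes), with 3 of the 10 at an unadjusted p under 0.05 (19.6% of all genes in DESeq2). The log2FC was positive for 3 genes (Dhx9, Hnrnpa1, Hnrnpdl) and negative for 7, with a median of −0.079 beside −0.026 over all genes. Every Zmat3-/- mouse was above every wt mouse for 1 gene, Dhx9 (7.31% of all genes), and below for 1, Hnrnpl (6.75% of all genes). The count differed between fits. With the Xist level as a covariate it stayed at 0 (1.31% of all genes). With 1 surrogate variable in the fit, a covariate estimated from the counts, 6 of the 10 were called, where 37.8% of all genes were: Dhx9 and Hnrnpa1 higher, Hnrnpa2b1, Hnrnpa3, Hnrnpl and Hnrnpm lower. Against wt mice 1 and 2 alone 5 were called (Dhx9, Hnrnpa2b1, Hnrnpc, Hnrnpl and Hnrnpm; 56.1% of all genes), and against wt mice 3 and 4 alone 1, Hnrnpa1, at a log2FC of 0.28 (33.0% of all genes).

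Between TKO and wt thymocytes, which addresses the loss of all 3 genes together, 0 of the 10 genes were called by edgeR, beside 0.294% of 13260 genes tested, 0.241% with the added fold threshold. None had an unadjusted p under 0.05 with edgeR (10.3% of all genes), nor with DESeq2 (13.2% of all genes there), which called 0 of the 10 and 2.87% of all genes. Dhx9 and Hnrnpa1 had a positive and the other 8 a negative log2FC, with a median of −0.067 beside −0.037 over all genes. No member separated the genotypes in either direction, where 6.95% of all genes had every TKO mouse above and 5.15% every TKO mouse below every wt mouse. With 1 surrogate variable Dhx9 was called (log2FC 0.30, adjusted p = 0.0206 from edgeR), where 17.9% of all genes were, and against wt mice 1 and 2 alone Dhx9 and Hnrnpm were called, where 43.6% were. Against wt mice 3 and 4 alone 0 of the 10 were called, where 8.15% of all genes were. The comparisons of both mutant groups with wt share the same wt mice.

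Between TKO and Zmat3-/- thymocytes, which differ by the loss of PUMA and p21 on the Zmat3-/- background, the 10 genes were closest. Their log2FC lay between −0.12 (Hnrnpa1) and 0.080 (Hnrnpa2b1), 7 positive and 3 negative, with a median of 0.020 beside −0.008 over all genes. None was called (adjusted p from 0.983 upwards in edgeR), beside 0.221% of 13124 genes tested and 0.122% with the added fold threshold. None had an unadjusted p under 0.05 (4.50% of all genes) in edgeR, and 2 did in DESeq2 (4.69% of all genes there), which called 0 of the 10 and 0.556% of all genes. The ranges of the mice overlapped for every member, where 3.49% of all genes had the TKO mice above and 1.43% below. The 95% intervals reached as far as −0.28 (Hnrnpa1) and 0.27 (Hnrnpa2b1), so smaller differences could have gone undetected.

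**Figure D4:**
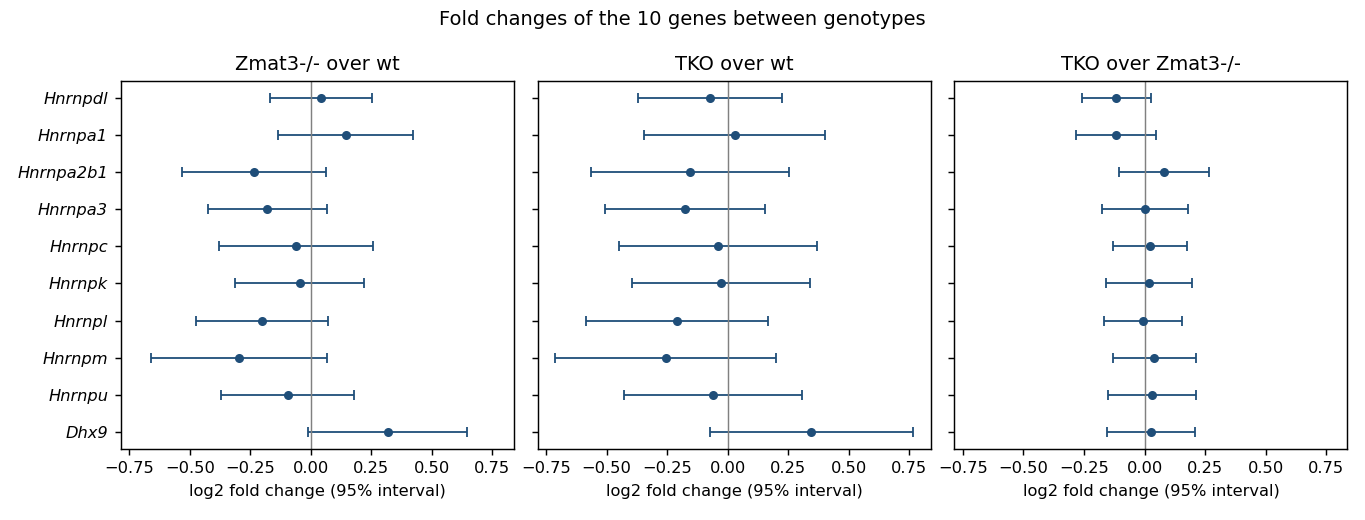
log2 fold change of each of the 10 genes with its 95% interval from edgeR's quasi-likelihood fit, for Zmat3-/- over wt, TKO over wt and TKO over Zmat3-/- mice. All 30 intervals include 0, those of Dhx9 over wt reaching from −0.010 to 0.65 and from −0.073 to 0.76, and the intervals without wt mice are the narrowest.

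Hnrnpa3, which encodes another protein of the A/B family, needs a separate account, because part of its reads could also be assigned to the pseudogene Gm5641. Gm5641 (ENSMUSG00000069014.4, chromosome 3 of GRCm38 from 54481438 to 54482925, plus strand) is a transcribed processed pseudogene of 1488 bases, and all 1458 of its 31-base words occur in transcripts of Hnrnpa3 (chromosome 2), where they make up 26.6% of that gene's 5472 words. The opening of the Hnrnpa3 coding sequence, its first 60 bases from the start codon, is shown because the same letters stand at bases 29 to 88 of Gm5641.
Hnrnpa3 and Gm5641: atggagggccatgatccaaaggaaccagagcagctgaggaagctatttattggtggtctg
Gm5641 was counted at 929, 747, 508 and 488 CPM in wt mice 1 to 4, 661 to 737 in Zmat3-/- mice and 618 to 766 in TKO. Hnrnpa3 itself had 831, 738, 806 and 754.6 CPM in wt, 651 to 739 in Zmat3-/- mice and 654 to 819 in TKO. Gm5641 took 52.8% and 50.3% of the sum of both genes in wt mice 1 and 2 and 38.7% and 39.3% in wt mice 3 and 4, against 49.9% to 51.4% in Zmat3-/- mice and 48.3% to 49.4% in TKO, so the division differed between the wt pairs. The log2FC of Hnrnpa3 in Zmat3-/- over wt mice was −0.18 alone (adjusted p = 0.450) and −0.056 with the counts of its 17 copies added (adjusted p = 0.857, both from edgeR). Whether the counts of Gm5641 are its own RNA or reads of Hnrnpa3 was not tested. The level of Hnrnpa3 is uncertain for the same reason, since the copies held 48.6% of the sum, and so is its place in the order per length. Its next copies, Gm11847 and Gm12960, had a mean of 2.32 and 1.02 CPM. The 5 copies of Hnrnpa1 and the 1 each of Hnrnpc and Hnrnpk took at most 0.035% of the sum with their gene, and the other 6 genes had none by this measure.

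Over the 11 mice, among 12956 genes that passed the filter in all comparisons, the genes with the log2 CPM most like that of Dhx9 were Rapgef1 (Pearson r = 0.995), Slc30a4 (0.990) and Mtdh (0.988). Rapgef1, which encodes a guanine nucleotide exchange factor for RAP1, ranged over 168 to 242 CPM in wt, 252 to 271 in Zmat3-/- mice and 234 to 352 in TKO. For Hnrnpdl they were Wwp2 (0.909), its paralog Hnrnpd (0.904) and Mta3 (0.903), with Hnrnpd at 208 to 351 CPM in wt, 259 to 290.5 in Zmat3-/- mice and 232 to 352 in TKO. These correlations are descriptions over points that share genotype and library, TKO mouse 3 and wt mice 1 and 2 included.

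Of 20 other genes of the hnRNP class, 1 was called: Hnrnph3, which encodes a member of the G-tract binding H/F family, was lower in Zmat3-/- than in wt mice. The 1 call is 5% of the list, beside 0.763% of all genes. Hnrnph3 had 81.7, 73.6, 72.8 and 74.6 CPM in wt mice 1 to 4, 52.0, 56.3, 47.5 and 48.2 in Zmat3-/- and 55.8, 54.9 and 52.1 in TKO mice. Every mutant mouse of both genotypes was below every wt mouse, and the wt pairs did not separate. The log2FC was −0.56 in Zmat3-/- (standard error 0.088, adjusted p = 0.0309 from edgeR), a fall of 32.3%, and −0.52 in TKO mice (standard error 0.126, adjusted p = 0.255), which did not pass. The call in Zmat3-/- mice was lost in 9 of 19 alternatives, the replicate number as a block among them (log2FC −0.57, adjusted p = 0.180 from edgeR), while the log2FC stayed between −0.61 and −0.53. It was lost without any 1 of wt mice 2, 3 and 4 or of the 4 Zmat3-/- mice, at adjusted p of 0.0685 to 0.152. In DESeq2 the same difference had an adjusted p of 6.87e-08, and in TKO over wt mice 0.00653. Against wt mice 3 and 4 alone and against wt mice 1 and 2 alone the log2FC in Zmat3-/- mice was −0.55 and −0.59, past the threshold in both (adjusted p = 0.000696 and 0.000537 in edgeR). These fits called 33.0% and 56.1% of all genes, and the wt pairs were chosen from the same counts.

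Of the 20, 13 had a positive and 7 a negative log2FC in Zmat3-/- over wt mice, with a median of 0.063 beside −0.026 over all genes. The counts were again 13 and 7 in TKO over wt mice (median 0.082) and 14 and 6 in TKO over Zmat3-/- mice (median 0.045). Ptbp3, a paralog of the polypyrimidine tract binding protein, had 267, 269.6, 354 and 350.1 CPM in wt, 378 to 410.4 in Zmat3-/- mice and 399 to 493 in TKO. All mutant mice were above all wt mice, at a log2FC of 0.36 (adjusted p = 0.254) and 0.45 (adjusted p = 0.427, both from edgeR), which did not pass. Between TKO and Zmat3-/- mice none had an unadjusted p under 0.05, and Pcbp1, a poly(C)-binding protein gene, had a log2FC of 0.094 (adjusted p = 0.983 from edgeR).

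Of 16 other genes for DExH-box helicases, the family of Dhx9, none was called by edgeR in any comparison, where 0.763%, 0.294% and 0.221% of all genes were in Zmat3-/- over wt, TKO over wt and TKO over Zmat3-/- mice. In Zmat3-/- over wt mice 4 had an unadjusted p under 0.05 (16.1% of all genes), 11 had a positive and 5 a negative log2FC, and the median was 0.077. Dhx15, which encodes the helicase that takes spliceosomes apart, had 202, 242, 349 and 343 CPM in wt, 387 to 406 in Zmat3-/- mice and 381 to 478 in TKO. All mutants were above all wt mice, with a log2FC of 0.48 (adjusted p = 0.27) in Zmat3-/- and 0.52 (adjusted p = 0.481) in TKO mice, both from edgeR, and wt mice 1 and 2 were the lowest, as for Dhx9. Dhx16, whose product acts at the catalytic step of splicing, had 147, 139, 117 and 118 CPM in wt and 99.7 to 108 in Zmat3-/- mice, every Zmat3-/- mouse below every wt mouse (log2FC −0.33, adjusted p = 0.153 from edgeR). In TKO mice it had 106 to 122 CPM and overlapped with wt. Dhx32 was second by p in TKO over wt mice (log2FC 0.38, adjusted p = 0.498 from edgeR), where 1 of the 16 had an unadjusted p under 0.05 (10.3% of all genes). Between TKO and Zmat3-/- mice Dhx57 (−0.14) and Dhx30 (0.100) had the lowest p, each with an adjusted p of 0.983 from edgeR, and none had an unadjusted p under 0.05.

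**Figure D5:**
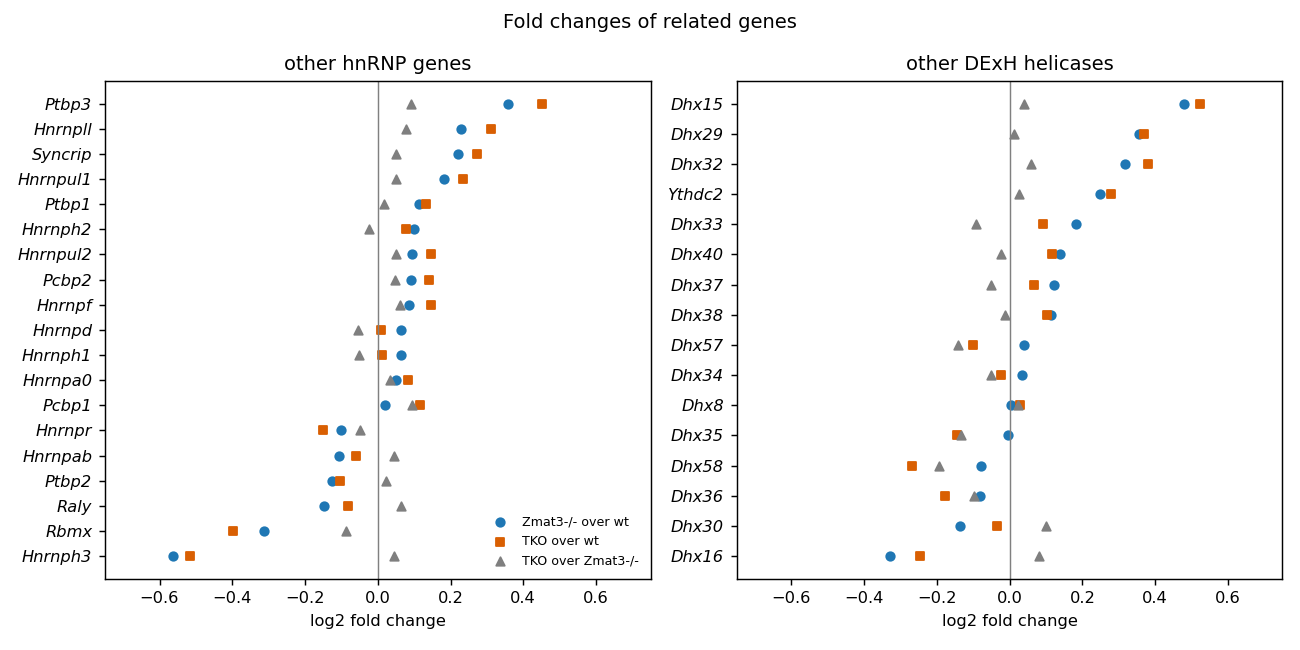
log2 fold change of 19 of the 20 other hnRNP genes and 16 other DExH-box helicase genes in the 3 comparisons, each panel ordered from top to bottom by Zmat3-/- over wt. Hnrnph3 lies at the bottom of the hnRNP panel at −0.56 and −0.52 against wt, Dhx15 at the top of the helicase panel at 0.48 and 0.52, and the values of TKO over Zmat3-/- mice lie between −0.19 and 0.100.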

How the data were processed

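RNA was sequenced from thymocytes of 11 mice. Reads were pseudo-aligned to GRCm38.p6 with Salmon in nf-core/rnaseq and GENCODE vM25, and the authors deposited estimated counts per gene, without normalization. All values were whole numbers. Salmon divides reads shared by similar transcripts by estimate, which affects Hnrnpa3. Names, lengths and positions came from GENCODE M21 (54166 of 54418 identifiers matched).

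The labelled genotypes were set against each other in pairs (edgeR 4.0.16 in R 4.3.3, TMM, quasi-likelihood F-test, two-sided, Benjamini-Hochberg adjustment over all genes tested). A gene was tested if its count, brought to the depth of the shallowest library, reached 20 in a number of mice equal to that of the smaller genotype. Excluded were Xist, chromosome Y genes, rRNA and immunoglobulin pseudogenes. The study used DESeq2 with sex and surrogate variables. The labels give no sex, so DESeq2 1.42.0, the Xist level and 1 surrogate variable (sva 3.50.0) were alternatives. The standard error is the absolute log2FC over the square root of F, and log2 CPM used a prior count of 2. The fit was tested on simulated data. No outlier by Dixon's ratio was found in 28 groups of 4 mice. The TKO mice were not checked, and the ratio cannot flag a pair of mice that deviate together, as in wt.

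The members and lists were chosen with earlier results of these data known. Named were all members, the targeted genes, from each list the called genes or else the 2 with the lowest p (1 of the other hnRNP genes is counted but not reported here by name), the 3 genes most like Dhx9 and Hnrnpdl, and up to 3 copies per member sharing over 50% of 31-base words. Ptbp3 and Dhx15 were also described outside the comparison in which the rule named them, and Hnrnpd's levels because it is a paralog. Leaving out pairs of wt mice was added after seeing the data. The main fits did not pair mice, since the labels do not say that mice of the same number are pairs. The replicate number was used as a block in an alternative only. For Zmat3-/- and wt mice that share a number, the deviations from their group means had correlations of 0.128 to 0.337. Of the 4 numbers, 2 correlated better with another number than with their own, so a pairing is not established.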

Additional observations from a re-analysis of the deposited data

How the results depend on the processing

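No member was called in TKO over Zmat3-/- mice under any alternative. Against wt, the alternatives moved the counts as follows. In Zmat3-/- over wt mice, 6 members, 8 other hnRNP genes and 6 other helicases were called with 1 surrogate variable (37.8% of all genes), 1, 10 and 4 without wt mice 1 and 2 (33.0%), and 5, 9 and 10 without wt mice 3 and 4 (56.1%). DESeq2 called 1 other helicase (8.04% of all genes). Of the other hnRNP genes 0 were called with no filter on low counts and 0 with the replicate block, against 1 without the block, and 0 to 1 with each mouse left out. In TKO over wt mice, 1 member, 5 other hnRNP genes and 2 other helicases were called with 1 surrogate variable (17.9% of all genes), 4 other hnRNP genes and 1 other helicase without wt mice 1 and 2 (8.15%), and 2, 5 and 6 without wt mice 3 and 4 (43.6%). DESeq2 (2.87% of all genes) and a fit of all 3 genotypes (1.63%) each called 1 other hnRNP gene, where the main count was 0 (0.294%). The cause was not tested. With the replicate block all genes called fell from 103 to 12 in Zmat3-/- over wt mice, and it changed no call of a member. For mice with the same number in the comparisons with TKO, the correlations were 0.0734 to 0.405 with wt and 0.0102 to 0.195 with Zmat3-/-. Some but not all numbers correlated best with their own, so it stays unknown whether these mice are pairs. The block, in fits that also lost mouse 4 of the larger group for want of a same number, called 16 and 20 genes. Without that mouse and without a block 27 and 23 were called, and with all mice 39 and 29.

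Of the log2FC values of the 10 members and Hnrnph3, the genes refitted under the alternatives, 549 kept direction and side of the threshold, 20 gained a call, 9 lost it (all Hnrnph3) and 35 changed sign. In Zmat3-/- over wt mice the signs that turned were Hnrnpc (0.17) and Hnrnpk (0.063) without wt mice 1 and 2, and Hnrnpdl (−0.020) and Hnrnpu (0.012) without wt mice 3 and 4. With each mouse left out Hnrnpk ranged from −0.085 to 0.016 and Hnrnpc from −0.14 to 0.024. In TKO over wt mice they were Hnrnpk with no filter (0.017), Hnrnpa1 with the replicate block and no wt mouse 4 (−0.020, and −0.026 without that mouse and with no block), Hnrnpc with the Xist level (0.016), Hnrnpc (0.028) and Hnrnpk (0.0058) with 1 surrogate variable, Hnrnpc (0.20), Hnrnpk (0.089) and Hnrnpm (0.0045) without wt mice 1 and 2, and Hnrnpa1 (−0.098) and Hnrnpu (0.059) without wt mice 3 and 4. With each mouse left out Hnrnpc ranged from −0.11 to 0.052, Hnrnpk from −0.069 to 0.047, Hnrnpa1 from −0.026 to 0.11 and Hnrnpu from −0.12 to 0.0034. In TKO over Zmat3-/- mice they were Hnrnpl with no filter (0.0094) and with 3 genotypes in a fit (0.0017), Hnrnpa3 with the replicate block and no Zmat3-/- mouse 4 (−0.014) and with its copies added (−0.043), and Dhx9 with 1 surrogate variable (−0.026). With each mouse left out Hnrnpl ranged from −0.033 to 0.045, Hnrnpa3 from −0.017 to 0.035, Hnrnph3 from −0.0068 to 0.15 and Dhx9 from −0.047 to 0.083. Dhx9 over wt kept a positive sign in every alternative, with a range of 0.11 to 0.55 for Zmat3-/- and of 0.14 to 0.59 for TKO mice. Of the order per length, 6 of 10 ranks stayed with the union of exons as length.

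The limits are the 3 or 4 mice per genotype, the split of the wt mice, and gene-level counts that cannot show exon use. The lowest count of a member in any mouse was 6190.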
